A study of Rattus norvegicus with 12 samples.

Results

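Versican, the hyaluronan synthases, the hyaluronan receptor Cd44, the 4 syndecans and glypican 1 were followed in the hearts of rats, as 18 probe sets of 8 genes among 31042 probe sets on a 1-colour 3' oligonucleotide array. A probe set is a group of short probes against 1 transcript, and it was included when the array annotation gave it exactly 1 gene symbol among the 9 listed genes (Vcan, Has1, Has2, Cd44, Sdc1, Sdc2, Sdc3, Sdc4, Gpc1). The annotation used here held no such probe set for Has1. The genes were chosen by their measured intensities in failing against control hearts, so their differences in that contrast are given as a description, without a test.

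The series follows hearts of the spontaneously hypertensive rat (SHR), a strain bred for high blood pressure, from compensated hypertrophy to systolic failure. Its groups were 6 failing and 6 control hearts, each on an array of its own and described as biological replicates. No strain, age, sex or treatment is given for the single hearts in the labels, and captopril-treated hearts named in the protocol are not analysed here. The tissue is labelled as heart although another label calls the material a cell line. All 6 measured cardiomyocyte marker genes (Tnnt2, Tnni3, Myl2, Ryr2, Myh6, Pln) were among the brighter probe sets, with summed intensities from 164865 to 267490 in failing and from 163561 to 270532 in control hearts. Arrays were scaled to the same trimmed mean, near 500.2, and had median intensities between 120.8 and 144.2. Precision is limited by the number of arrays. Control replicate 4 stood apart from the other control hearts in several measures. It had the lowest sums of cardiomyocyte and fibroblast markers of the 12 hearts and the highest array median, so each member's difference is also given without it. In whole tissue, a different number of cells of a type and a different amount of RNA per cell cannot be told apart.

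Versican is a large chondroitin sulfate proteoglycan that binds hyaluronan, a long sugar polymer made at the cell surface by the Has enzymes. Together they form a soft, hydrated matrix around cells that is laid down in the developing heart and in injured tissue. Cd44 is the main cell surface receptor for hyaluronan. Syndecans are transmembrane heparan sulfate proteoglycans that act as co-receptors for growth factors and link matrix to the cytoskeleton, and glypican 1 is a heparan sulfate proteoglycan held at the membrane by a lipid anchor.

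The bases just before the transcription start of 4 of these genes are shown because Vcan, Cd44 and Sdc4 averaged higher in failing hearts while Sdc1, a syndecan whose groups overlapped broadly, is set beside them. Each run is the 250 bases before the first listed RefSeq start, 5′ to 3′ along the gene (build GRCr8). Vcan lies at chr2:22595956-22596205 and Cd44 at chr3:109699425-109699674, both on the minus strand. Sdc4 lies at chr3:173592924-173593173 on the minus strand and Sdc1 at chr6:37281791-37282040 on the plus strand. Capitals mark matches to a GC box (GGGCGG) on either strand, or to the 10-letter NF-kappaB consensus on the strand shown.
Vcan: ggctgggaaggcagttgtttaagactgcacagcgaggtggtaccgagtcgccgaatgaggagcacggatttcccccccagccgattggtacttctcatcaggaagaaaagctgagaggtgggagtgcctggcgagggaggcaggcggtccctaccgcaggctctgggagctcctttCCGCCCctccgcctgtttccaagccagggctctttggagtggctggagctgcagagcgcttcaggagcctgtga
Cd44: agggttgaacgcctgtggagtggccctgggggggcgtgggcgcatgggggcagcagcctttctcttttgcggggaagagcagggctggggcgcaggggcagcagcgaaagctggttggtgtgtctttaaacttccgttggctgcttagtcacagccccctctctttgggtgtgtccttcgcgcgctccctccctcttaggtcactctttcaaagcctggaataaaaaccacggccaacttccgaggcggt
Sdc4: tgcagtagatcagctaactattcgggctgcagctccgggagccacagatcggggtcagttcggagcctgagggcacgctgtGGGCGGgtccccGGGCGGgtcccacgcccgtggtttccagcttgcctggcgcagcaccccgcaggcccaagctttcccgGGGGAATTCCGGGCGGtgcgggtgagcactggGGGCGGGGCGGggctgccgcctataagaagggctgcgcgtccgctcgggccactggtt
Sdc1: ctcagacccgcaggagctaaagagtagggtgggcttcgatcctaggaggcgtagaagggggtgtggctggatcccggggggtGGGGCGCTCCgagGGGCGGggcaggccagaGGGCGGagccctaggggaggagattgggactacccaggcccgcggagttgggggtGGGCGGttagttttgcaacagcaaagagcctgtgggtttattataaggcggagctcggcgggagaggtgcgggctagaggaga
The Sdc4 window held 5 GC boxes, 2 of which share a base, and 1 match to the NF-kappaB consensus (GGGGAATTCC). The Sdc1 window held 3 GC boxes and 1 match to the same consensus (GGGGCGCTCC), the Vcan window held 1 GC box, and the Cd44 window held no searched motif. Of 27457 promoters of the same length, 32.4% held a GC box and 4.46% the NF-kappaB consensus. The NF-kappaB consensus was searched along the gene only, and its reverse form was not searched in any promoter. The AP-1 motif (TGANTCA), the SMAD box (CAGACA) and a TATA box (TATAAA) were searched too, occurred in 6.36%, 16.9% and 13.1% of all promoters, and had no match in these 4 windows. The motifs were chosen with these windows already in view. A match is a description of letters and not a site in use, and no match says only that these letters are not in the window. RefSeq promoter entries were found for 6 of the 9 genes, and Has2, Sdc2 and Gpc1 were not among them.

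Failing hearts lay wholly above control hearts at the brightest versican probe set, 1388142_at, as they did at 1.78% of brighter probe sets. The genes were chosen with this contrast in view, so this is a description. At 1388142_at, intensities in failing hearts ran from 558.2 through a median of 980.2 to 1407.1, against 282.6, 326.1 and 485.2 in control hearts. The lowest failing heart, replicate 4, was still above the highest control heart, which was also replicate 4. On the log2 scale the probe set averaged 9.85 ± 0.49 in failing and 8.43 ± 0.30 in control hearts (SD, n = 6 each), a difference of 1.42 ± 0.23 (SE), or 2.68-fold. With 1 heart left out the difference ran from 1.30 (failing replicate 3) to 1.57 (failing replicate 4), and was 1.52 without control replicate 4. Leaving out 1 heart cannot move it by 1 residual SD, so this range says little about robustness.

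The other versican probe sets gave smaller differences. At 1388054_a_at failing hearts ran from 500.3 through 790.3 to 1305.5, against 237.5, 353.7 and 537.6 in control hearts. The difference was 1.08 ± 0.26 (log2, SE), and 4 of 6 failing hearts exceeded every control heart. At 1371232_a_at failing hearts ran from 376.1 through 562.8 to 805.9, against 247.6, 358.0 and 479.9 in control hearts. The groups overlapped further there, with a difference of 0.71 ± 0.24, or 1.64-fold. The suffix a marks probe sets that detect several transcripts of 1 gene, and the transcript regions these probe sets cover were not analysed here. The dim probe set 1388265_x_at, whose suffix marks probes shared with other sequences, ran from 71.8 to 139.5 in failing hearts, against 11.3 to 109.6 in control hearts. The last, 1371233_at, lay between 2.8 and 49.2 in failing and between 2.6 and 54.4 in control hearts, near the bottom of the scale, and the groups overlapped throughout. Without control replicate 4 the differences of these 4 probe sets, in the order given, were 1.19, 0.81, 1.00 and -0.02. Without failing replicate 3 they were 0.93, 0.61, 0.77 and -0.37. Averaging all 5 versican probe sets on the log2 scale gave a smaller difference of 0.82 ± 0.22.

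**Figure D1:**
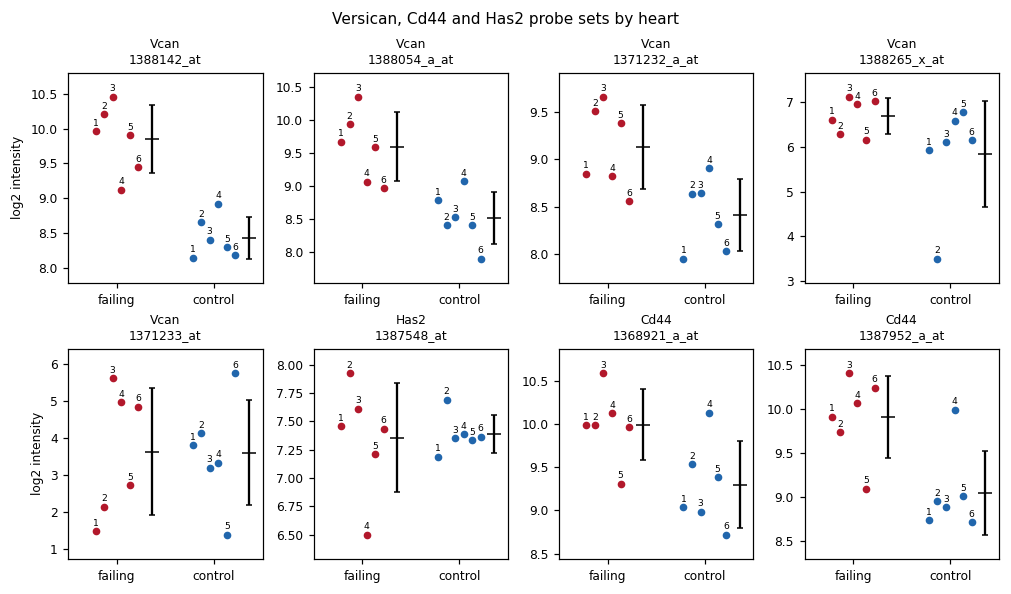
Log2 intensity of each versican, Has2 and Cd44 probe set in each of the 6 failing (red, left) and 6 control (blue, right) hearts, with replicate numbers beside the points and black bars for mean ± SD. Failing hearts lie above every control heart at Vcan 1388142_at, and control replicate 4 lies among the failing hearts for Cd44.

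Has2 encodes the synthase that makes most hyaluronan in the developing heart of the mouse. Its probe set ran from 90.4 through 174.4 to 243.4 in failing hearts, against 145.7, 164.2 and 206.7 in control hearts. Failing hearts spread on both sides of the control hearts, replicate 4 being the lowest and replicate 2 the highest. The difference was -0.03 ± 0.21 (log2, SE), and values anywhere in its 95% interval, from -0.49 to 0.43, were compatible with these arrays. Its sign turned with single hearts, being 0.14 without failing replicate 4 and -0.14 without failing replicate 2, and it stayed at -0.03 without control replicate 4.

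Cd44 averaged higher in failing hearts at both of its probe sets, with overlap between the groups. At 1387952_a_at failing hearts ran from 545.8 through 1019.2 to 1362.3, against 418.4, 484.1 and 1020.0 in control hearts. The control value of 1020.0 was replicate 4, which alone among control hearts reached the failing range, whereas the failing value of 545.8 was replicate 5, close to the other control hearts. The difference was 0.86 ± 0.27 (log2, SE), or 1.82-fold, and 1.05 without control replicate 4. Without failing replicate 3 it was 0.76. At 1368921_a_at failing hearts ran from 635.0 through 1014.7 to 1543.4, against 421.0, 597.4 and 1121.1 in control hearts. Its difference was 0.70 ± 0.26, or 0.86 without control replicate 4, which was again the highest of its group. With failing replicate 3 left out instead, it was 0.58.

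Macrophages carry Cd44, so macrophage markers are given beside it. The summed intensity of 7 measured macrophage markers lay between 5825 and 15311 in failing hearts, against 4355 to 7164 in control hearts, the highest control sum being that of replicate 4 and the lowest failing sum that of replicate 5. Of these markers 2 of 7 passed, Mrc1 and C1qb (limma adjusted p = 0.0392 and 0.0461 among brighter probe sets, of which 4.25% were called), and none was at 0. Another, Adgre1, had a negative difference of -0.58 that did not pass (adjusted p = 0.425). Within groups, Cd44 at 1368921_a_at varied with the mean of the macrophage markers (Pearson r = 0.59 over 12 hearts, group means subtracted) and against that of the cardiomyocyte markers (r = -0.77). It also varied with the red blood cell markers Hbb and Alas2 (r = 0.55) and the endothelial markers (r = 0.47). The same r of 0.47 was found with Cd4, the only brighter gene of the T and B cell list, which by itself does not mark a cell type here. Control replicate 4 had the highest red blood cell sum of its group, 42857. These values from shared arrays are given as a description. The part of any of these cells in the Cd44 difference was not tested. Lymphocytes carry Cd44 too, and 6 of 7 measured T and B cell markers were among the dimmer probe sets, with sums from 287.2 to 735.9 in failing and from 383.5 to 462.5 in control hearts.

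Syndecan 4 gathers at focal adhesions and has been linked in the mouse to calcineurin signalling in pressure-loaded hearts. It was the other member with failing hearts wholly above control hearts, as at 1.78% of brighter probe sets. Its probe set 1367721_at ran from 1141.8 through 1764.0 to 3255.3 in failing hearts, against 631.3, 914.3 and 982.4 in control hearts. Failing replicates 1 and 6 stood well above the rest, at 3199.3 and 3255.3, and replicates 2 and 5 lay just over the control range. Means were 10.87 ± 0.67 in failing and 9.69 ± 0.29 in control hearts (log2, SD, n = 6 each). The difference was 1.18 ± 0.29 (SE), or 2.26-fold, and 1.21 without control replicate 4. Endothelial markers, 5 measured, summed to 10079 to 15167 in failing hearts, against 8462 to 10875 in control hearts. Vwf alone of the 5 passed, at 1.10 (limma adjusted p = 0.0276 among brighter probe sets, 4.25% called), and none was at 0. Pecam1 and Tek differed by 0.51 and 0.13, whereas Kdr and Tie1 differed by -0.12 and -0.36. Sdc4 varied with the mean of the 5 markers within groups (Pearson r = 0.59 over 12 hearts), and the part of endothelial cells in its difference was not tested.

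Syndecan 2, a syndecan typical of mesenchymal cells, lay higher in failing hearts at all 3 of its probe sets. At 1370167_at failing hearts ran from 820.0 through 1108.6 to 1708.2, against 612.5, 665.9 and 897.1 in control hearts. Replicate 3 was the highest heart of both groups, and 5 of 6 failing hearts exceeded every control heart, for a difference of 0.72 ± 0.19 (log2, SE). At 1382189_at failing hearts ran from 1528.1 to 2776.6, against 1121.1 to 1723.7 in control hearts, and at 1370166_at from 1148.4 to 2532.9, against 978.8 to 1352.9. These differed by 0.46 ± 0.17 and 0.46 ± 0.19, with 4 of 6 failing hearts above every control heart at each. Without control replicate 4 the differences were 0.71 at 1370167_at, 0.39 at 1382189_at and 0.45 at 1370166_at. Without failing replicate 3, the highest failing heart at each, they were 0.60, 0.35 and 0.33.

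Fibroblasts are a source of both syndecan 2 and versican. The summed intensity of 8 fibroblast markers lay between 47816 and 93104 in failing hearts, against 38161 to 60560 in control hearts, and decorin (Dcn) alone of the 8 passed (limma adjusted p = 0.0292 among brighter probe sets, 4.25% called), none being at 0. Within groups, Sdc2 at 1382189_at varied with the mean of these markers (Pearson r = 0.57 over 12 hearts), Vcan at 1388142_at hardly did (r = 0.11) and Sdc4 ran against it (r = -0.45). Their part in the differences was not tested.

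Syndecan 1, best known from epithelia and plasma cells, overlapped between the groups. At 1367849_at failing hearts ran from 67.0 through 197.0 to 316.1, against 79.3, 141.3 and 212.1 in control hearts. Failing replicates 5 and 6 fell among the lowest hearts while replicates 1 to 4 lay above 5 of the 6 control hearts, and the difference was 0.28 ± 0.37 (log2, SE). Single hearts moved it widely, to 0.095 without failing replicate 3, 0.54 without failing replicate 5 and 0.40 without control replicate 4. Its second probe set, 1376062_at, lay between 11.4 and 81.4 in failing and between 7.0 and 58.9 in control hearts, with full overlap, and its difference of 0.28 ± 0.63 was 0.49 without control replicate 4. Of 7 measured epithelial and mesothelial markers 6 were among the dimmer probe sets, with sums from 588.8 to 835.3 in failing and from 529.4 to 833.0 in control hearts.

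Syndecan 3, known mainly from the nervous system, gave probe sets that did not point the same way. The brighter 1372180_at ran from 197.3 through 464.5 to 585.5 in failing hearts, against 336.2, 457.0 and 888.9 in control hearts, a difference of -0.26 ± 0.31 (log2, SE). The dimmer 1368580_at ran from 87.5 through 132.5 to 231.2 in failing hearts, against 16.9, 71.8 and 125.6 in control hearts, with control replicates 1, 2 and 4 far below the rest, and differed by 1.36 ± 0.56. The third, 1368581_at, differed by -0.15 ± 0.40. Without control replicate 4 these differences were -0.26, 1.24 and -0.09. No direction is given for Sdc3 as a gene.

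The glypican 1 probe set varied little between hearts. It ran from 7443.0 through 8537.0 to 10301.9 in failing hearts, against 6631.8, 8197.5 and 9231.3 in control hearts, and the groups overlapped almost wholly. The difference was 0.08 ± 0.12 (log2, SE), with a 95% interval from -0.19 to 0.35, and 0.02 without control replicate 4.

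**Figure D2:**
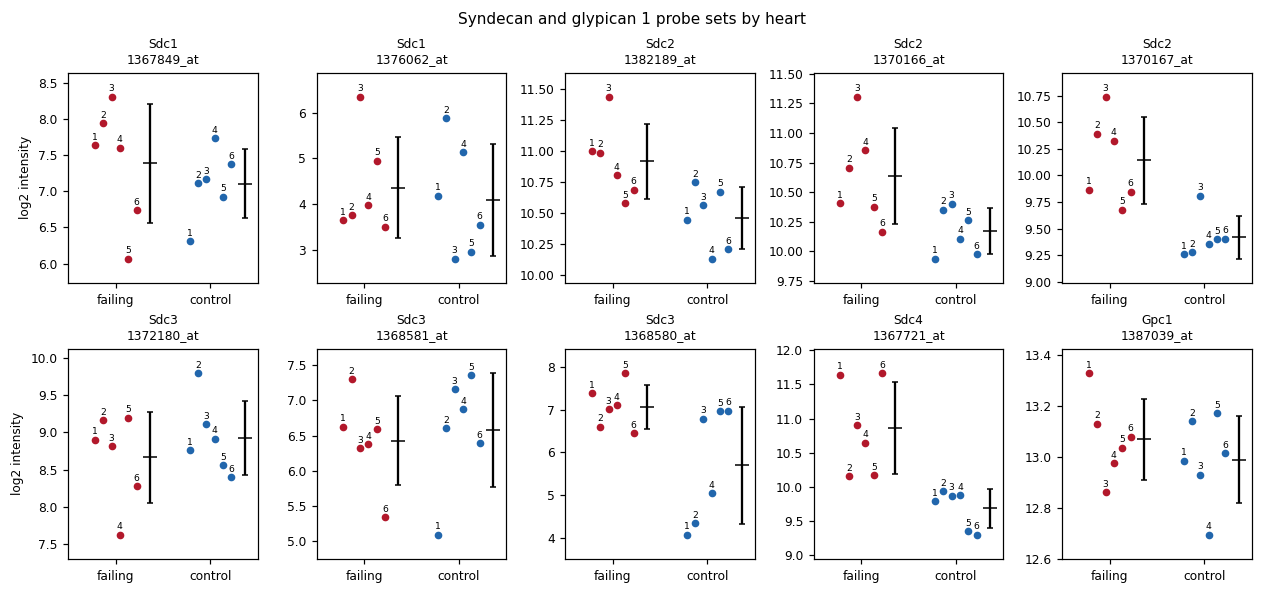
Log2 intensity of each syndecan and glypican 1 probe set in each of the 6 failing (red, left) and 6 control (blue, right) hearts, with replicate numbers beside the points and black bars for mean ± SD. Sdc4 separates the groups with failing replicates 1 and 6 at the top, Sdc2 is led by failing replicate 3, and Gpc1 overlaps.

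Counted over all members, 15 of 18 probe sets had a positive difference between failing and control hearts and 3 a negative one, with a median of 0.58 (log2) beside -0.02 over all 31042 probe sets. Of the 18, 13 were brighter probe sets, meaning a mean log2 intensity over the 12 arrays of at least 6.94 (intensity 123), the median of all probe sets. In the fit over all probe sets limma called 0 of 31042 (0% called) and so 0 of the 18 at an adjusted p under 0.05, although 4495 had an unadjusted p under 0.05. In the fit to the 15521 brighter probe sets it called 659 (4.25% called, 2.76% higher and 1.48% lower), among them 4 of the 13 members, Vcan at 1388142_at and 1388054_a_at, Sdc2 at 1370167_at and Sdc4, each higher in failing hearts. Failing hearts lay wholly above control hearts at 2 of 18 members, and wholly below at 0, beside 0.989% of all probe sets wholly above and 1.52% separated in either direction. Among brighter probe sets these shares were 1.78% and 2.62%. Because the choice of genes used this contrast, nothing is read from these counts. The count of 4 became 7 with control replicate 4 left out. It became 2 when failing replicate 1, 2 or 6, or control replicate 3, was left out, and 1 for each of failing replicates 3 and 4 and control replicates 1, 2, 5 and 6, and with failing replicate 5 left out it was 6.

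**Figure D3:**
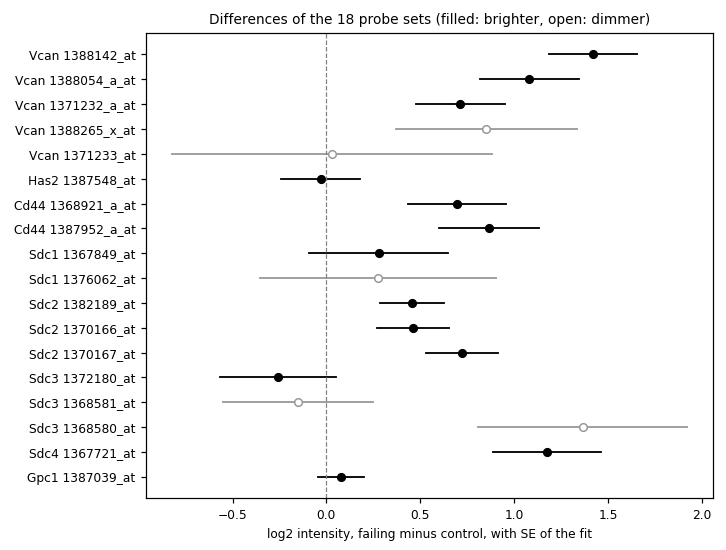
Difference in log2 intensity between failing and control hearts (failing minus control) for the 18 probe sets, with bars of 1 SE from the limma fit over all probe sets. Filled points are the 13 brighter and open points the 5 dimmer probe sets, and Vcan 1388142_at has the largest difference, 1.42.

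Most brighter members varied more between failing hearts than between control hearts. Among the 13 brighter members the SD was larger in failing hearts for 10, beside 49.4% of all brighter probe sets. The exceptions were both Cd44 probe sets and Gpc1, and most dimmer members had the larger SD in control hearts. Several of these probe sets belong to the same gene. The median SD of the brighter members was 0.47 in failing and 0.30 in control hearts (log2). Over all brighter probe sets it was 0.26 in both groups. Failing replicate 3 was the highest failing heart for 9 of the 13, and failing replicate 5 the lowest for 5. Control replicate 4 was the highest control heart for 6, and control replicates 1 and 6 were the lowest for 6 and 5.

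After the group means were subtracted, probe sets of the same gene varied together, with a median Pearson r of 0.83 over 7 pairs (12 hearts, range 0.59 to 0.91). Pairs of different genes had a median r of 0.30 over 71 pairs, between -0.51 and 0.74. Vcan at 1388142_at and Has2 lay at the top of that range (r = 0.74), although their group differences were unlike. The other brighter versican probe sets, 1388054_a_at and 1371232_a_at, had r = 0.44 and 0.45 with Has2. Vcan at 1388142_at also had r = 0.73 with Sdc3 at 1372180_at. Failing replicate 4 was the lowest failing heart for Vcan at 1388142_at (558.2), Has2 (90.4) and Sdc3 at 1372180_at (197.3). The r values without that heart were not computed. Sdc4 stayed near or below 0 with all 3 brighter versican probe sets, in that the hearts highest in syndecan 4 (failing replicates 1 and 6) were not those highest in versican (failing replicates 3 and 2). Gpc1 ran against both Cd44 probe sets. These are descriptions over 12 arrays that share their scaling.

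**Figure D4:**
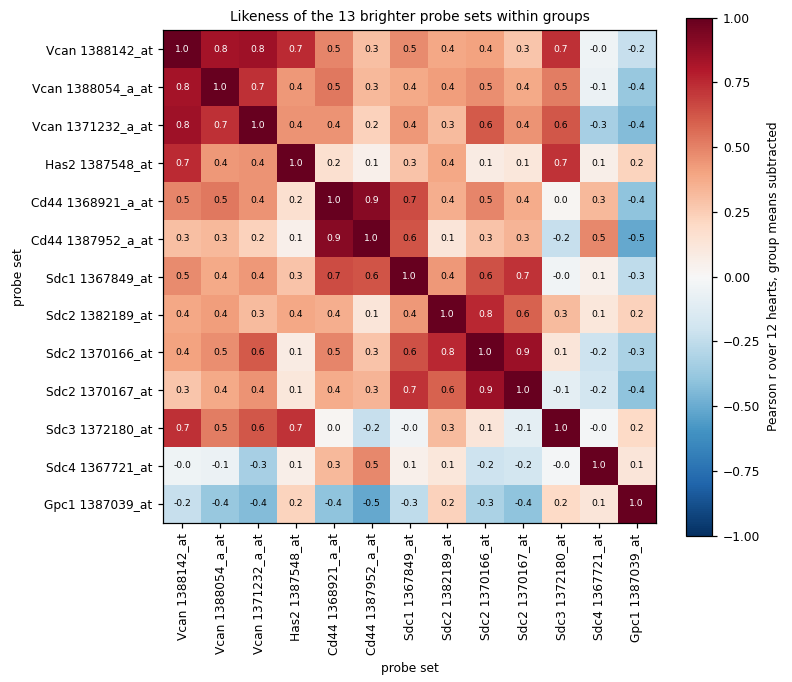
Pearson r between each pair of the 13 brighter probe sets over 12 hearts after subtracting the mean of each group, from -1 (blue) to 1 (red). Probe sets of the same gene form red blocks, and Sdc4 lies near or below 0 with all 3 versican probe sets.

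Other genes of hyaluronan and proteoglycan metabolism were taken as 8 lists with 112 genes, of which 88 were measured by 133 probe sets, 79 of them brighter. Among the brighter ones 8 rose and 0 fell in failing hearts (10.1%, beside the 4.25% called of all brighter probe sets), with a median difference of 0.19 (log2) beside 0.00 over all brighter probe sets. Over all probe sets 0 passed. The lists were chosen with earlier results of these data known, so these shares are given as a description. Each of the 8 calls ended without failing replicate 3 and without control replicate 1 or 6, and several ended without other hearts too (limma adjusted p from 0.0506 to 0.109 over the fits that lost a call). With control replicate 4 left out, 14 rose and 2 fell, and with failing replicate 5 left out, 10 rose and 1 fell. With failing replicate 1, 2, 4 or 6 left out, 5, 3, 2 and 1 rose, and with control replicate 2, 3 or 5 left out, 3, 2 and 2 rose.

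The list of hyaluronan and precursor synthesis had 2 called higher and 0 called lower of 5 brighter probe sets. Gfpt2, which starts the pathway to the amino sugar of hyaluronan, ran from 987.5 to 3333.7 in failing hearts, against 561.4 to 1229.1 in control hearts. It differed by 1.60 ± 0.30 (log2, SE, limma adjusted p = 0.0182 among brighter probe sets), and failing replicate 5 alone lay within the control range. Ugdh, which makes the UDP-glucuronic acid that all these chains need, ran from 935.1 to 1955.7 in failing hearts, against 643.2 to 1077.4 in control hearts, and differed by 0.80 ± 0.21 (adjusted p = 0.0404). The other measured genes of the list did not pass and did not point 1 way. Ugp2 differed by -0.32 ± 0.14 and Gnpnat1 by -0.24 ± 0.17 (adjusted p = 0.141 and 0.361). Pgm3 differed by 0.41 ± 0.24 at its brighter probe set (adjusted p = 0.260) and by -0.41 ± 0.81 at its dim one.

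Hyaluronan binding genes had 2 higher and 0 lower of 14 brighter probe sets. Tnfaip6, a secreted protein that cross-links hyaluronan in inflammation, ran from 123.1 to 423.2 in failing hearts, against 104.7 to 173.1 in control hearts, a difference of 1.02 ± 0.28 (limma adjusted p = 0.0448 among brighter probe sets). A dim second Tnfaip6 probe set differed by -0.25 ± 0.40 (limma adjusted p = 0.818 over all probe sets). Lyve1, the hyaluronan receptor of lymphatic endothelium and of some resident macrophages, differed by 1.01 ± 0.28 at 1382732_at (adjusted p = 0.0472) and by 0.73 ± 0.27 at its second brighter probe set, which did not pass (adjusted p = 0.0951). Breakdown enzymes had 0 calls among 5 brighter probe sets. The hyaluronan-degrading protein gene Cemip had the smallest p of that list but was dim, from 42.7 to 106.2 in failing hearts, against 8.1 to 59.5 in control hearts (difference 1.41 ± 0.44, limma adjusted p = 0.189 over all probe sets).

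The heparan sulfate list had 2 higher and 0 lower of 17 brighter probe sets. Sulf2, an extracellular enzyme that removes 6-O-sulfate groups from the chains that syndecans and glypicans carry, ran from 2578.4 to 4745.3 in failing hearts, against 1865.0 to 2334.5 in control hearts, with no overlap. It differed by 0.77 ± 0.17 (log2, SE; limma adjusted p = 0.0276 among brighter probe sets). Ext1, a subunit of the enzyme that elongates heparan sulfate, ran from 1137.1 to 1853.3 in failing hearts, against 853.8 to 1132.5 in control hearts, and differed by 0.49 ± 0.13 (adjusted p = 0.0420). A dim second Ext1 probe set differed by -0.07 ± 0.37 (limma adjusted p = 0.959 over all probe sets). The chondroitin sulfate list had 1 higher and 0 lower of 16, namely Chpf, a factor of chondroitin chain elongation, at 0.71 ± 0.17 (adjusted p = 0.0301).

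Syndecan partners and sheddases had 1 higher and 0 lower of 13 brighter probe sets. This was a probe set of Fgf1, a growth factor that binds heparan sulfate, at 1.01 ± 0.29 (limma adjusted p = 0.0497 among brighter probe sets), whereas 2 brighter probe sets of the same gene differed by 0.33 ± 0.14 and 0.21 ± 0.15 without passing (adjusted p = 0.133 and 0.355). Other lecticans and versican-cleaving proteases had 0 calls among 6, Adamts1 having the smallest p of the list at 0.58 ± 0.21 (adjusted p = 0.0868). Other glypicans had 0 calls among 3, and a dim Gpc6 probe set had their smallest p, from 79.7 to 151.4 in failing hearts, against 4.2 to 122.1 in control hearts (difference 1.94 ± 0.62, limma adjusted p = 0.201 over all probe sets).

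**Figure D5:**
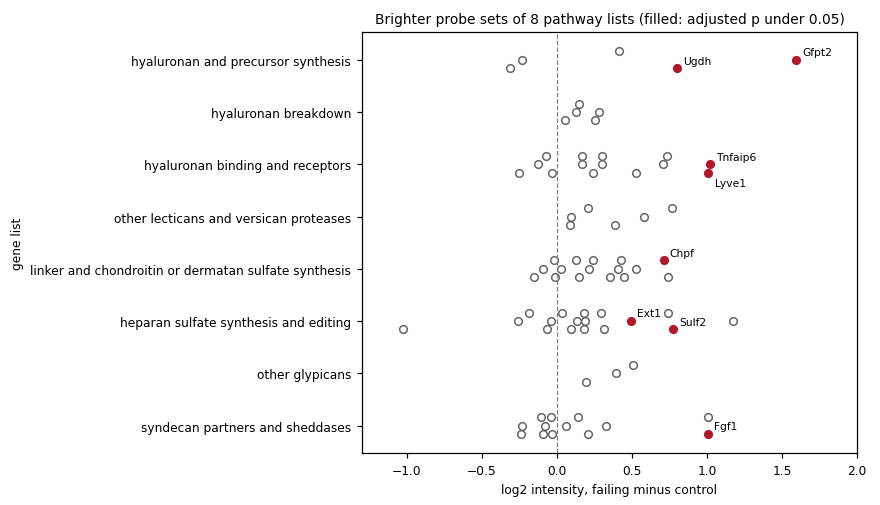
Difference in log2 intensity between failing and control hearts (failing minus control) for each of the 79 brighter probe sets of the 8 lists, 1 point per probe set. Filled red points passed an adjusted p of 0.05 among the brighter probe sets, and all 8 of them lie above 0.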

How the data were processed

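RNA of 12 rat hearts was measured, 6 failing and 6 control, with groups and replicate numbers taken from the sample titles. The authors deposited 1 table of linear intensity values for 31099 probe sets, between 0.1 and 79913.6. Columns without a sample numbered 0. The submitters' processing notes name RMA, which usually gives log2 values, but each array's mean, after 2% of values were trimmed at both ends, lay within 500.19 to 500.23, a scaling to 1 target. The summary method is therefore unknown, and a shift of most genes one way would not be seen. The build behind the annotation is not given in the sources used here.

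Intensities were put on a log2 scale without an offset. After 57 control probe sets were left out, 31042 remained, 20826 with 1 gene symbol, 436 with several and 9780 with none listed. The contrast was fitted by limma 3.58.1 under R 4.3.3, using lmFit and eBayes with no term besides group (two-sided, Benjamini-Hochberg, threshold 0.05), over all probe sets and over the 15521 brighter ones. Differences are failing minus control with the SE of the fit over all probe sets, and p-values weigh a difference against the spread between these hearts. The members, the gene lists, the tests and the use of the brighter fit were chosen with earlier results of these data known. All member probe sets are named. Of each pathway list up to 3 called probe sets in each direction are named, or the probe set with the smallest p, and for each member the 3 genes (5 for Vcan) most like it within groups. Second probe sets and non-passing genes beside them were named after their values were seen.

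On simulated data with normal, independent noise, the fit over 31042 probe sets recovered 34% and 60% of changes of 1 and 2 (log2), and the brighter fit 74% and 98%. Alternatives were the variance model, array weights, 2 normalizations, an offset of 32, the replicate number as a block, the brightness limit, the threshold, the mean of all probe sets of a gene and leaving out each heart. A covariate for RNA quality, the 3' minus 5' difference of Gapdh control probe sets, was added after the data were seen. Same-numbered hearts of the groups did not vary together throughout (correlations of their deviations from -0.06 to 0.23), so the numbers were not taken as pairs. Figures were drawn with matplotlib 3.10.9.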

Additional observations from a re-analysis of the deposited data

Results flagged for a closer look

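In 36 groups of 6 hearts (18 probe sets in 2 groups), 3 had a heart whose gap to its nearest neighbour was large for the range of its group by Dixon's criterion, which chance meets in about 1 of 20 groups. At Cd44 1387952_a_at, control replicate 4 stood at 1020.0, the highest of its group. At Sdc2 1370167_at, control replicate 3 stood at 897.1, also the highest. At the dim versican probe set 1388265_x_at, control replicate 2 stood at 11.3, the lowest of its group.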

How the results depend on the processing

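The differences of the 18 member probe sets moved by less than 1 residual SD in 357 of 360 recomputed values, and none of the 4 called ones changed sign. The 3 exceptions came from averaging all probe sets of a gene, which gave 0.82 for Vcan in place of 1.42 at 1388142_at, and 0.32 for Sdc3 in place of 1.36 at 1368580_at and -0.26 at 1372180_at. Most of this was fixed in advance. The variance model and the replicate block leave a difference unchanged, and leaving out a single heart cannot move it by 1 residual SD. Averaging cannot move a gene with a single probe set. The count of 357 therefore says little about robustness. The counts of calls changed with the settings. Among brighter probe sets, 429 higher and 230 lower became 1203 and 1067 with array weights, 222 and 59 with the replicate number as a block, 247 and 81 with the RNA quality covariate, and 0 and 0 at an adjusted p of 0.01 or with no filter on dim probe sets. They became 620 and 419 with an intensity trend in the variance prior, 395 and 136 with median centring, and 508 and 407 with the limit at the upper quartile. Over all probe sets, 0 and 0 became 380 and 186 with the intensity trend, and 35 and 11 with an offset of 32. The 4 members called became 8 with array weights, 2 with the RNA quality covariate, and 0 at an adjusted p of 0.01 or with no filter. With the replicate block the count was 3. The 8 pathway probe sets called became 13 higher and 2 lower with array weights, 5 higher with the replicate block, 4 with the RNA quality covariate, and 0 at an adjusted p of 0.01 or with no filter. Leaving out each heart gave 20 to 1035 higher and 4 to 1048 lower brighter probe sets, 0 to 120 higher and 0 to 40 lower over all, 1 to 7 members higher, and 0 to 14 pathway probe sets higher and 0 to 2 lower. The cause was not tested. Dim probe sets, with a median residual SD of 1.08 (log2) against 0.28 for brighter ones, give no firm direction here.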

Other observations

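Of 9348 named genes with a brighter probe set, those that varied most like each member within groups, by Pearson r over 12 hearts with group means subtracted, were as follows. For versican at 1388142_at they were Fzr1 (r = 0.93), Pbrm1 (r = 0.91), Zfp146 (r = 0.90), Dbndd2 (r = 0.87) and Cars1 (r = 0.86). Gas6, Htt and Fbxw4 came nearest to Has2 (r from 0.85 to 0.90). Slc1a5, Trim33 and Golph3l came nearest to Cd44 (r = 0.94 for each). For syndecan 1 they were Serpina4, Jag1 and Cmpk2 (r = 0.91 for each), and for syndecan 2 they were Zfhx3, Rab2b and Cadm3 (r from 0.90 to 0.92). Dhx16, Arhgef11 and Adgrg2 came nearest to syndecan 3 (r from 0.85 to 0.88). Fbxo9, Tox4 and Fam107a varied most like syndecan 4 (r from 0.95 to 0.96), and Usp13, Map4 and Rab12 most like glypican 1 (r from 0.91 to 0.93). These are the highest values among 9348 genes over 12 arrays that share their scaling, and no p is attached to them.

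Endothelial markers were not uniform. The von Willebrand factor gene Vwf, a blood clotting protein of endothelium, differed by 1.10 (log2, limma adjusted p = 0.0276 among brighter probe sets), whereas the endothelial receptor genes Kdr and Tie1 differed by -0.12 and -0.36 (adjusted p = 0.680 and 0.123).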
